A study of Homo sapiens with 12 samples.

Results

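The genes of the mitochondrial ribosomal proteins were followed in sorafenib-resistant and parental cells of Huh7 and HepG2, which are established human liver cancer cell lines. The members are the genes under Ensembl identifiers whose symbol is MRPL or MRPS followed by a number and, in some, a letter from A to C. There are 77 of them, 49 with an MRPL and 28 with an MRPS symbol, among 27249 genes with an Ensembl identifier, and 17 pseudogenes were left out. MRPS16 is not analysed here. The rule uses symbols alone, and this group of genes was taken up with earlier results of these data known. Both lines were labelled as wild-type hepatocellular carcinoma cells and gave 4 groups of 3 samples, namely resistant Huh7, parental Huh7, resistant HepG2 and parental HepG2. According to the labels, resistant cells had survived a first dose of 10 μmol sorafenib, a multikinase inhibitor, and were then kept under repeated rounds of rising concentrations for 8 months, whereas no treatment of the parental cells is listed. Nothing says that the samples of a group were separate cultures or that the resistant cells of a line were derived more than once, or whether the drug was present at harvest, so the p-values measure only the spread between these samples, which may be technical.

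Mitochondrial ribosomes translate the few messenger RNAs of the mitochondrial genome, all of which encode core subunits of the respiratory chain and the ATP synthase. Their RNAs are transcribed in mitochondria, while every ribosomal protein is encoded in the nucleus, made in the cytosol and imported. Proteins of the large subunit (MRPL) surround the peptidyl transferase centre and the exit tunnel, and those of the small subunit (MRPS) bind the messenger RNA and decode it. Some have a counterpart in the bacterial ribosome and others arose in the mitochondrial lineage. Liver cells are rich in mitochondria, and sorafenib is known to affect mitochondrial function.

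Values were read as FPKM, fragments scaled to exon length and to the number of mapped reads. The number of reads behind a sample was estimated from the values themselves, at 12290128 to 19285958. By this estimate, resistant samples were deeper than parental ones. In Huh7 they had 18972400 to 19285958 against 16158300 to 17944450 reads, and in HepG2 16935535 to 18281778 against 12290128 to 15728850 reads. Within groups, log2 values of all expressed genes had a Pearson's r of 0.964 to 0.986. Of 8 hepatocyte markers all were expressed, and their summed level was 4922 to 5046 FPKM in resistant and 7605 to 9391 FPKM in parental Huh7 cells, and 3805 to 4084 against 4814 to 5931 FPKM in HepG2. AFP made up most of the difference in Huh7, with means of 2291 and 5332 FPKM, and of the 8 markers 2 were called higher there, APOA1 (log2 change 0.97) and HNF4A (0.77), and 3 lower. Among markers of other cell types, the 4 fibroblast genes summed to 1.81 to 4.54 FPKM, the 3 endothelial genes to 1.17 to 3.66 FPKM and the 3 leukocyte genes to 0.975 to 1.76 FPKM in any sample. Group means were 0 to 0.05 FPKM for DCN, CDH5 and CD68, but 2.07 to 3.58 FPKM for PDGFRB and 0.819 to 1.09 FPKM for PTPRC. From parental to resistant Huh7 cells, means went from 0.140 to 0.611 FPKM for COL1A1, 0.133 to 0.977 FPKM for COL1A2 and 0.0376 to 0.208 FPKM for VWF. These 3 genes were too low to test. The endothelial sum was higher in resistant than parental Huh7 cells (2.11 to 2.197 against 1.35 to 1.52 FPKM) and lower in resistant HepG2 cells (1.17 to 1.60 against 2.58 to 3.66 FPKM), with PECAM1 as its main gene, and its part in the results was not tested.

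Levels of the members spanned several orders of magnitude. MRPL11, a protein of the stalk base where translation factors land, was the most abundant with a mean of 96.4 FPKM over the 12 samples, followed by MRPL45 at 64.3 FPKM, which sits at the tunnel exit and ties the ribosome to the inner membrane, and MRPS35 of the small subunit at 55.1 FPKM. At the other end, MRPL40 (0.0955 FPKM), MRPS18B (0.0975 FPKM) and MRPL23 (0.105 FPKM) were lowest, with 1 to 19 reads behind a value. Altogether 8 members, MRPL18, MRPL21, MRPL23, MRPL34, MRPL40, MRPS18B, MRPS24 and MRPS28, did not reach 1 FPKM in 3 samples of any comparison and were not tested. Most of them are thought to be needed wherever mitochondria translate, and whether their values reflect the cells or how the authors' files were made was not tested, so no fold change is given for them. The remaining 69 members were tested in Huh7, and 67 of them in HepG2, where MRPL13 and MRPL55 were too low. The summed FPKM of the members made up 0.661% to 0.681% of that of all Ensembl genes in resistant and 0.494% to 0.525% in parental Huh7 cells, and 0.576% to 0.601% against 0.508% to 0.578% in HepG2, where 1 parental sample reached the range of the resistant ones. Without MRPL11 the Huh7 shares were 0.560% to 0.571% and 0.452% to 0.470%.

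To compare resistant with parental Huh7 cells, log2(FPKM + 1) was tested with limma. Of the 69 members, 39 were higher in resistant cells, 7 were lower and 23 did not pass an adjusted p of 0.05, against a background of 32.7% of all 12554 genes called higher and 37.4% called lower (70.1% in either direction). The median log2 change was 0.45 over the members and -0.04 over all genes tested. With a log2 change beyond 1 as well, the threshold for differentially expressed genes (DEGs), 17 members were higher and 2 lower, against 8.59% and 14% of all genes. All 3 resistant samples lay above all 3 parental ones in 40 members (35.2% of all genes) and below them in 9 (39.2% of all genes). In bulk samples, fewer cells of a type and less RNA per cell cannot be told apart.

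**Figure D1:**
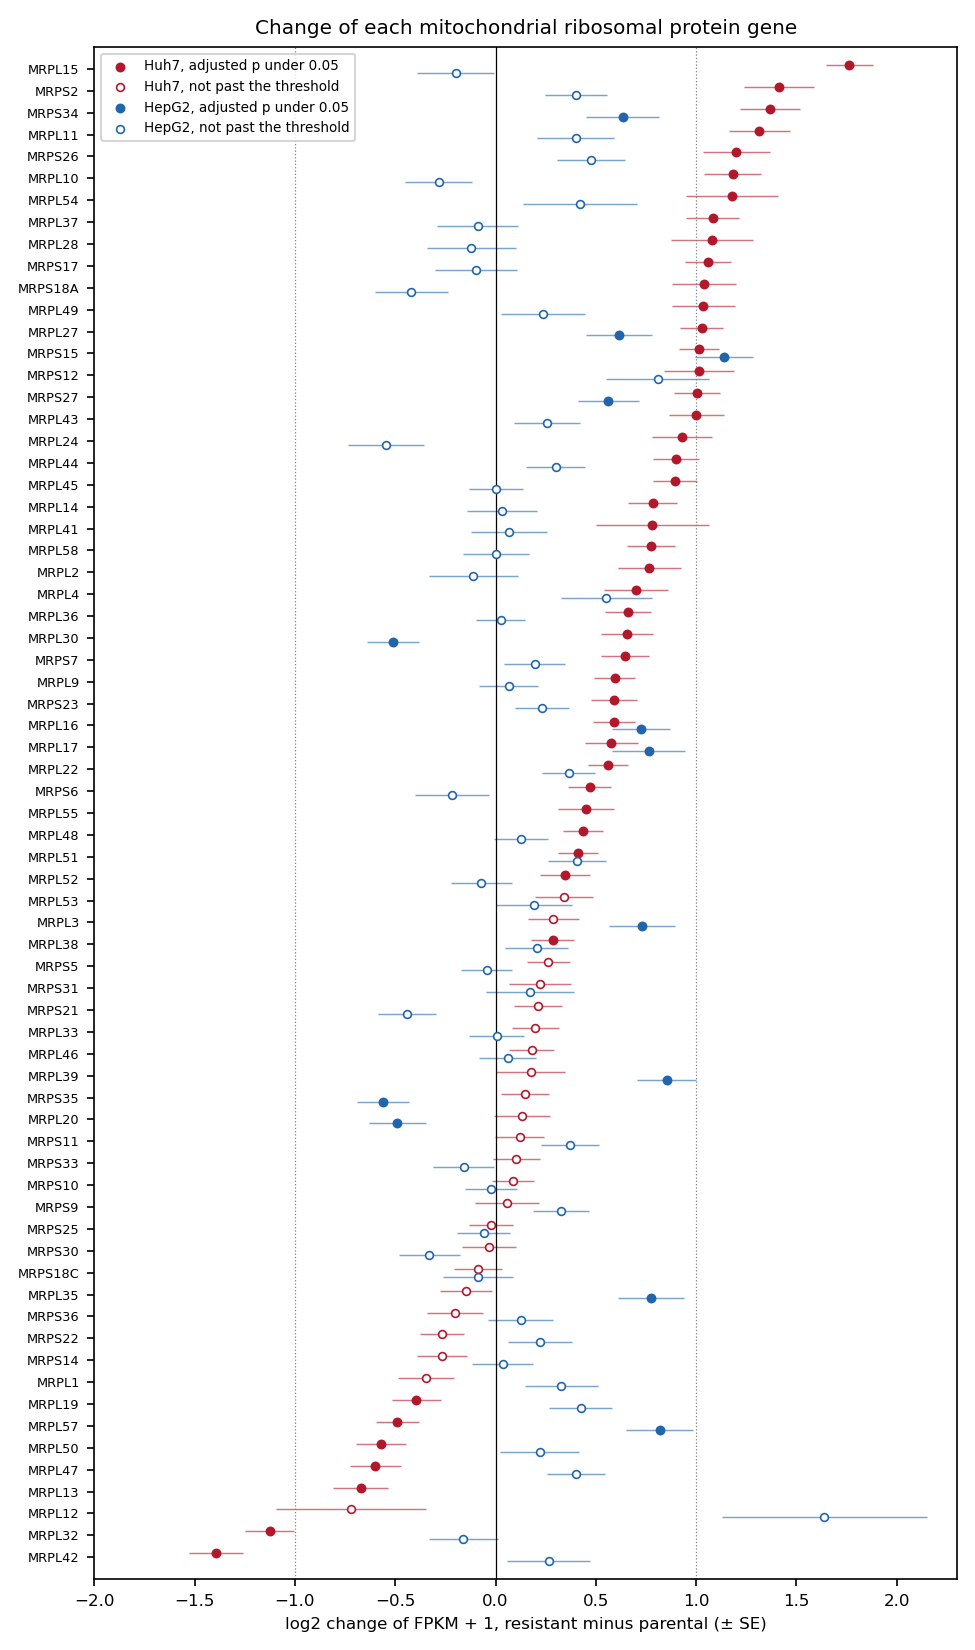
Change of each of the 69 tested mitochondrial ribosomal protein genes on the log2(FPKM + 1) scale, resistant minus parental, with standard errors (x axis), for Huh7 (red) and HepG2 (blue), sorted by the change in Huh7. Filled points passed an adjusted p of 0.05 and dotted lines mark a log2 change of 1 in either direction; the Huh7 values run from -1.39 in MRPL42 to 1.76 in MRPL15.

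Among large-subunit proteins with a bacterial counterpart, resistance in Huh7 came with 16 of 26 tested genes up and 4 down (median log2 change 0.58), against 32.7% and 37.4% of all genes. MRPL15, a core protein of the large subunit encoded on chromosome 8, measured 12.4, 11.1 and 9.46 FPKM in parental and 37.4, 40.9 and 40.3 FPKM in resistant cells. The 2 groups lay far apart, with a log2 change of 1.76 (SE 0.12, adjusted p = 1.64e-05), the largest among the members. MRPL11 (GRCh38 chr11:66435075-66466738, minus strand) went from 106, 104 and 76.1 FPKM to 253, 216 and 241 FPKM, a log2 change of 1.32 (SE 0.15, adjusted p = 0.000144). MRPL10, which carries the L12 stalk proteins, rose from 21.0 to 27.7 FPKM in parental to 49.2 to 65.3 FPKM in resistant cells (log2 change 1.18, SE 0.14). MRPL28 (log2 change 1.08) and MRPL27 (1.03), a protein next to the peptidyl transferase centre, passed the DEG threshold too. MRPL12 itself, the stalk protein that contacts translation factors, did not pass, with 8.46, 6.87 and 2.65 FPKM in parental and 2.67, 1.82 and 4.86 FPKM in resistant cells (adjusted p = 0.115).

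Of the 20 tested large-subunit proteins without a bacterial counterpart, 13 were higher and 3 lower, with a median of 0.42, against 32.7% and 37.4% of all genes. MRPL54 (log2 change 1.18), MRPL37 (1.08), MRPS18A (1.04), MRPL49 (1.04) and MRPL43 (1.00) were the DEGs that rose. MRPS18A belongs here in spite of its symbol, since this member of the S18 family is built into the large subunit, and it measured 27.8, 26.2 and 19.9 FPKM in parental against 59.0, 43.9 and 51.5 FPKM in resistant cells. MRPL45 rose from 26.2 to 32.3 FPKM to 53.5 to 56.2 FPKM (log2 change 0.89), and MRPL58, a release factor-like hydrolase that became a ribosomal protein, had a log2 change of 0.77. Some of these genes share exon sequence with a neighbour on the opposite strand, MRPS18A with RSPH9 over 47.0% of its exon bases and MRPL43 with SEMA4G over 32.8%. MRPL49 shares 11.6% with SYVN1 and 9.16% with FAU. As the counting is not stated to use strand, reads of such pairs cannot be told apart. Over the 12 samples RSPH9 had a mean of 1.425 FPKM beside 46.35 FPKM for MRPS18A, and SEMA4G 59.25 FPKM beside 16.65 FPKM for MRPL43. SYVN1 had 24.02 FPKM and FAU 61.3 FPKM beside 32.59 FPKM for MRPL49. Over all members, 22 shared exon bases on either strand with an Ensembl gene at a mean of at least 1 FPKM. Among the 48 tested members without such overlap, 29 were higher and 3 lower in Huh7, with a median of 0.57.

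Small-subunit proteins were split into those with a bacterial counterpart, of which 6 of 13 were higher and 0 lower (median 0.26), and those without, of which 4 of 9 were higher and 0 lower (median 0.22). Over all genes the shares were 32.7% higher and 37.4% lower. MRPS2 (chr9:135499984-135504673, plus strand) measured 11.6, 10.1 and 7.99 FPKM in parental and 31.6, 22.01 and 30.8 FPKM in resistant cells. Its lowest resistant value was still well above its highest parental one, and the log2 change was 1.41 (SE 0.17, adjusted p = 0.000187). MRPS34 (chr16:1771890-1773155, minus strand), which lacks a bacterial counterpart and is mutated in a mitochondrial disease, rose from 4.47, 5.09 and 3.95 FPKM to 15.3, 10.6 and 14 FPKM (log2 change 1.37, SE 0.15, adjusted p = 0.000113). MRPS26 rose by a log2 change of 1.199, MRPS17 by 1.06, MRPS15 and MRPS12 by 1.01 each and MRPS27, a pentatricopeptide repeat protein, by 1.00. MRPS12, which takes part in accurate decoding, measured 4.87 to 5.54 FPKM in parental and 9.17 to 15.6 FPKM in resistant cells. Across symbols, 28 of 44 MRPL genes were higher and 7 lower, and 11 of 25 MRPS genes were higher and 0 lower. Beside these 0 lower calls by limma, 1 MRPS gene was lower at an unadjusted p under 0.05, and limma-voom on reads calculated back from FPKM called 2 MRPS genes lower.

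**Figure D2:**
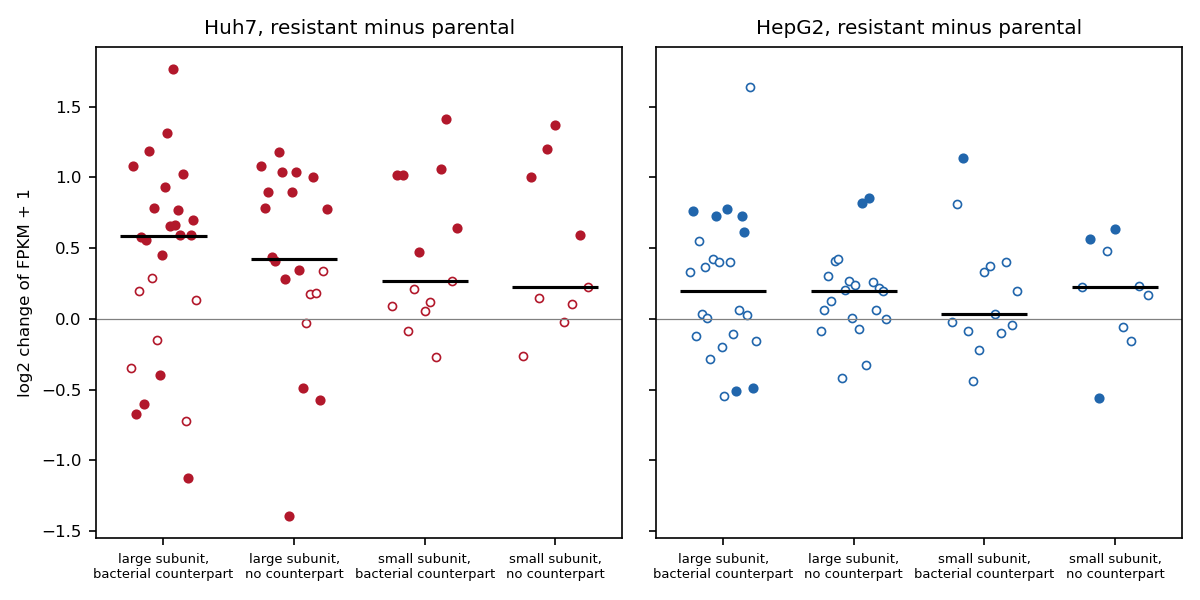
Log2 change of FPKM + 1, resistant minus parental, of the tested members in Huh7 (left) and HepG2 (right), by subunit and by whether a bacterial counterpart exists; each point is a gene, filled where its adjusted p was under 0.05, and bars are medians. In Huh7 the medians are 0.58, 0.42, 0.26 and 0.22 from left to right, and the 7 genes called lower are all in the large-subunit columns.

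The 7 members that were lower in resistant Huh7 cells all belong to the large subunit. MRPL42 (chr12:93467488-93516213, plus strand), which has no bacterial counterpart, fell from 21.6, 26.6 and 23.1 FPKM to 7.64, 10.1 and 7.68 FPKM, with a log2 change of -1.39 (SE 0.13, adjusted p = 7.08e-05). MRPL32, whose maturation by an inner membrane protease is needed for ribosome assembly, fell from 2.70, 3.43 and 3.66 FPKM to 0.850, 0.939 and 1.04 FPKM (log2 change -1.13). Values did not overlap between the groups in either gene, and these were the 2 DEGs that fell. MRPL13 (-0.67), MRPL47 at the tunnel exit (-0.60), MRPL50 (-0.57), MRPL57 (-0.49) and MRPL19 (-0.39) fell by less. MRPL13 was low, at 0.500 to 2.13 FPKM in Huh7. Within the S18 family, MRPS18C did not change detectably (log2 change -0.09, adjusted p = 0.54) at 1.06 to 1.65 FPKM, and ABRAXAS1 covers 40.2% of its exon bases on the other strand. MRPS36, now known as a subunit of the oxoglutarate dehydrogenase complex, measured 8.09 to 10.98 FPKM in parental and 7.10 to 8.91 FPKM in resistant cells (adjusted p = 0.227).

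GC content, taken from the longest transcript of a gene, moved with these changes. Over all genes tested in Huh7, GC-richer genes had the higher log2 changes, with a median of -0.89 at 34% to 38% GC and of 0.56 at 58% to 62% GC. Spearman's rho was 0.62 across all genes and 0.64 across the members, which share the same 6 libraries. In HepG2 these correlations were 0.04 and 0.08. The members' median GC content was 47.3% against 46.7% for all genes tested. Split at 45% GC, a value chosen after the data were seen, 8 of 29 members under it rose and 6 fell with resistance in Huh7, where 8.52% and 65.6% of all such genes were called. Of the 40 members at or over 45% GC, 31 were higher and 1 lower, where 51.0% and 15.9% of all such genes were called. When the GC trend was taken off, 52 members were higher and 5 lower, against 32.5% and 31.9% of all genes. In that fit MRPL13, MRPL47, MRPL50 and MRPL19 turned from lower to a log2 change of 0.35, 0.19, 0.38 and 0.38. Of the 7 members called lower, 3 remained called, MRPL42, MRPL57 and MRPL32, and of the 39 called higher 34 did.

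**Figure D3:**
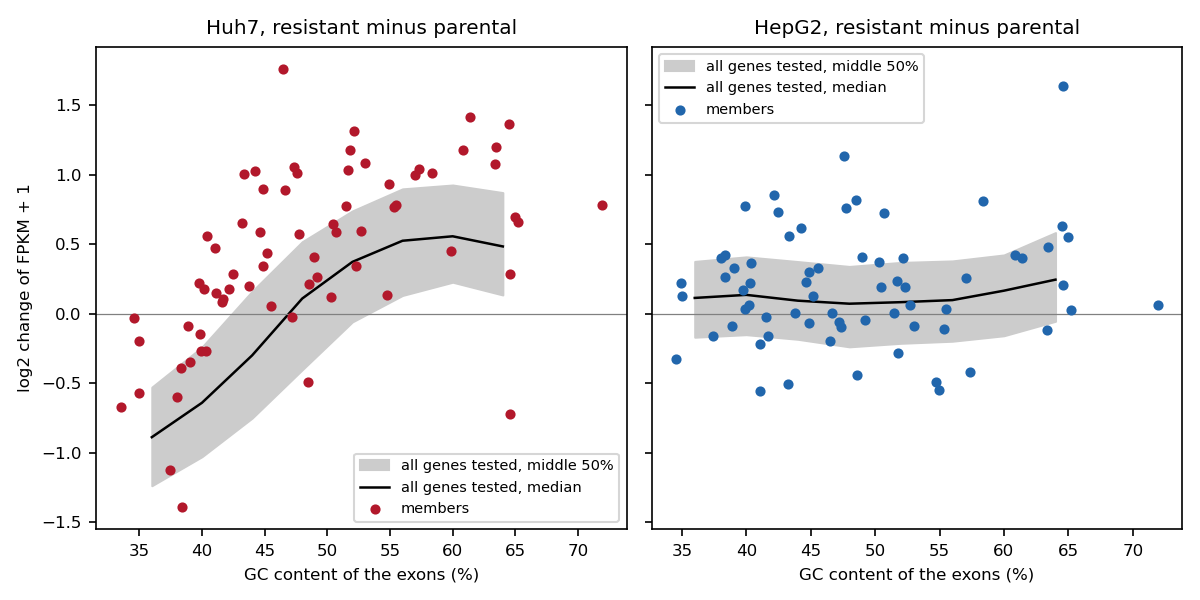
Log2 change of FPKM + 1, resistant minus parental (y axis), against GC content in percent (x axis) for the members (points) and for all genes tested (black line, median in bins of 4% GC; grey band, middle 50% of genes), in Huh7 (left) and HepG2 (right). The GC content is that of the longest transcript of a gene, although the axis names the exons. The Huh7 median climbs from -0.89 to 0.56 with GC content, while the HepG2 median stays between 0.07 and 0.25.

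In HepG2, 10 of 67 members were higher in resistant than in parental cells, 3 were lower and 54 did not pass, against a background of 11.6% of all 11762 genes called higher and 8.43% called lower. The median log2 change was 0.19 over the members and 0.12 over all genes tested. MRPS15 (chr1:36455718-36464437, minus strand), an early-binding protein of the small subunit, was the only DEG among the members, where 3.29% of all genes passed that threshold upwards and 2.98% downwards. It measured 18.4, 22.4 and 20.6 FPKM in parental and 41.8, 51.0 and 46.1 FPKM in resistant cells, and its groups were far apart (log2 change 1.14, SE 0.14, adjusted p = 0.00176). MRPL39 (0.85), MRPL57 (0.82), MRPL35 (0.78), MRPL17 (0.76), MRPL3 (0.73) and MRPL16 (0.73) of the large subunit were also higher, as were MRPS34 (0.63), MRPL27 (0.62) and MRPS27 (0.56). MRPL39, which resembles a tRNA synthetase, rose from 8.83, 9.36 and 9.44 FPKM to 20.4, 17.4 and 14.9 FPKM. MRPL3 lies close to the peptidyl transferase centre and measured 7.60 to 11.7 FPKM in parental and 15.7 to 16.6 FPKM in resistant cells.

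The 3 lower members in HepG2 were MRPS35, MRPL30 and MRPL20. MRPS35 went from 61.4, 70.5 and 66.4 FPKM to 47.3, 42.9 and 43.4 FPKM (log2 change -0.56, adjusted p = 0.0204). MRPL30 went from 14.03, 15.9 and 15.8 FPKM to 9.98, 10.3 and 10.99 FPKM (-0.51, adjusted p = 0.0278), and MRPL20 from 4.62, 5.87 and 4.88 FPKM to 3.07, 3.41 and 3.56 FPKM (-0.49, adjusted p = 0.0457). None of these pairs of groups overlapped, as in 20 members that lay above (24.9% of all genes) and 7 that lay below (15.5% of all genes). Most calls in HepG2 depended on which libraries were used. Leaving out 1 sample at a time gave 2 to 14 higher and 0 to 2 lower members. There were 2 higher without resistant replicate 3, 4 without parental replicate 1 and 6 without resistant replicate 2. Of all genes, 3.34%, 5.77% and 6.99% were called higher in these fits, against 11.6% in the main fit. The share of all genes called lower was 4.03% to 7.81% without 1 sample. Across all 6 fits, 2 of the 10 higher and 0 of the 3 lower calls held. With the GC trend taken off, 8 members were lower in HepG2, against 17.6% of all genes in that fit and 8.43% in the main fit. In Huh7, 35 of 39 and 5 of 7 calls held in all 6 fits without 1 sample.

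MRPL12 (chr17:81703357-81707526, plus strand) had the largest change in HepG2 without passing. It measured 1.48, 1.82 and 2.66 FPKM in parental and 2.53, 14.7 and 13.0 FPKM in resistant cells, at 20 to 276 reads a library. Resistant replicate 1 lay within the parental range and the other 2 resistant samples far above it. The log2 change was 1.64 (SE 0.51, adjusted p = 0.0545). It was 2.33 without resistant replicate 1, a fit that drops the 1 resistant sample within the parental range and so cannot show that the gene rose.

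**Figure D4:**
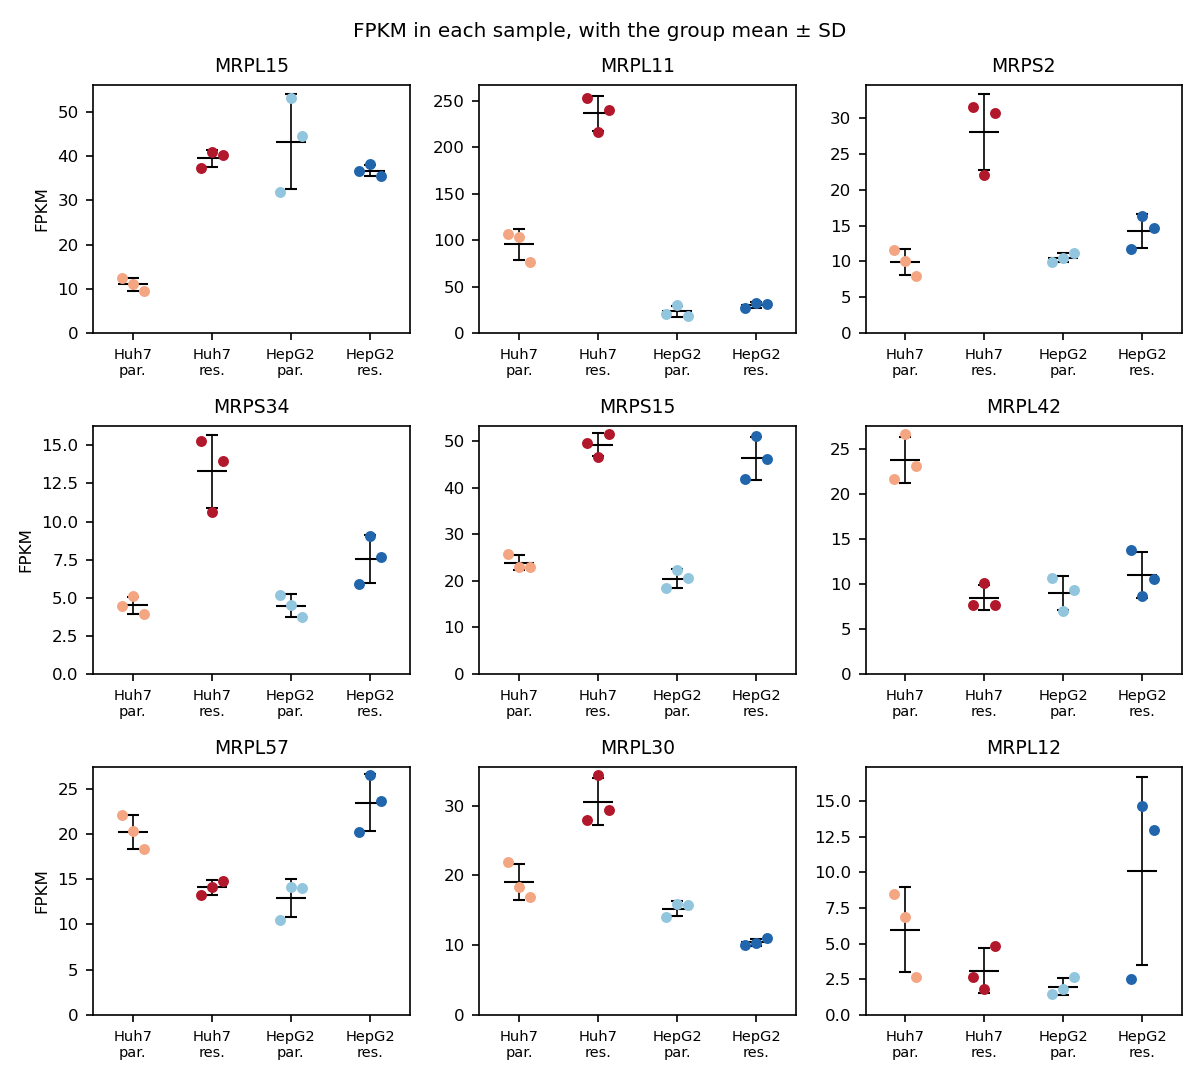
FPKM of 9 members in each of the 12 samples (points), with the group mean and SD (black), for parental (par.) and resistant (res.) Huh7 and HepG2 cells; every y axis starts at 0. MRPS15 rises in both lines, MRPL15 rises in Huh7 from 9.46 to 12.4 FPKM to 37.4 to 40.9 FPKM, and MRPL12 scatters from 2.53 to 14.7 FPKM among resistant HepG2 cells.

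The HepG2 and Huh7 comparisons share no sample, so the members tested in both could be set side by side. Among these 67, 6 were higher in both lines, MRPS15, MRPS34, MRPL27, MRPS27, MRPL16 and MRPL17, which is 6 of the 38 higher in Huh7 and 6 of the 10 higher in HepG2. Of all genes, 32.7% were called higher in Huh7 and 11.6% in HepG2, and the share called higher in both was not counted. Whether 6 exceeds what calls of 38 and 10 give without any relation was not tested. Without 1 sample, MRPS34 lost its HepG2 call in 5 of 6 fits and MRPL27 in 4. MRPS15 was the 1 member past the DEG threshold in both. No member was lower in both, at an adjusted or an unadjusted limma p under 0.05 or by limma-voom, while 36 were called in Huh7 alone, 5 in HepG2 alone and 18 in neither. MRPL16, next to the peptidyl transferase centre, measured 27.9 to 32.9 FPKM in parental and 46.0 to 48.0 FPKM in resistant Huh7 cells, and 12.5 to 16.4 against 23.7 to 26.4 FPKM in HepG2. MRPL17 measured 29.6 to 37.2 against 43.5 to 56.1 FPKM in Huh7 and 14.4 to 20.3 against 26.7 to 35.8 FPKM in HepG2. The changes of the members in the 2 lines had a Spearman's rho of -0.02 across the 67 genes, which are not independent replicates.

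MRPL57 and MRPL30 were called in opposite directions. MRPL57, a large-subunit protein without a bacterial counterpart, went from 22.03, 20.3 and 18.3 FPKM to 13.2, 14.2 and 14.8 FPKM in Huh7 and from 10.5, 14.2 and 14.04 FPKM to 20.2, 26.5 and 23.6 FPKM in HepG2. Its log2 change was thus -0.49 in Huh7 and 0.82 in HepG2. MRPL30 showed the reverse, with 21.9, 18.3 and 17.0 FPKM in parental and 28.0, 34.4 and 29.3 FPKM in resistant Huh7 cells (log2 change 0.66) beside the fall of 0.51 on the log2 scale in HepG2.

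**Figure D5:**
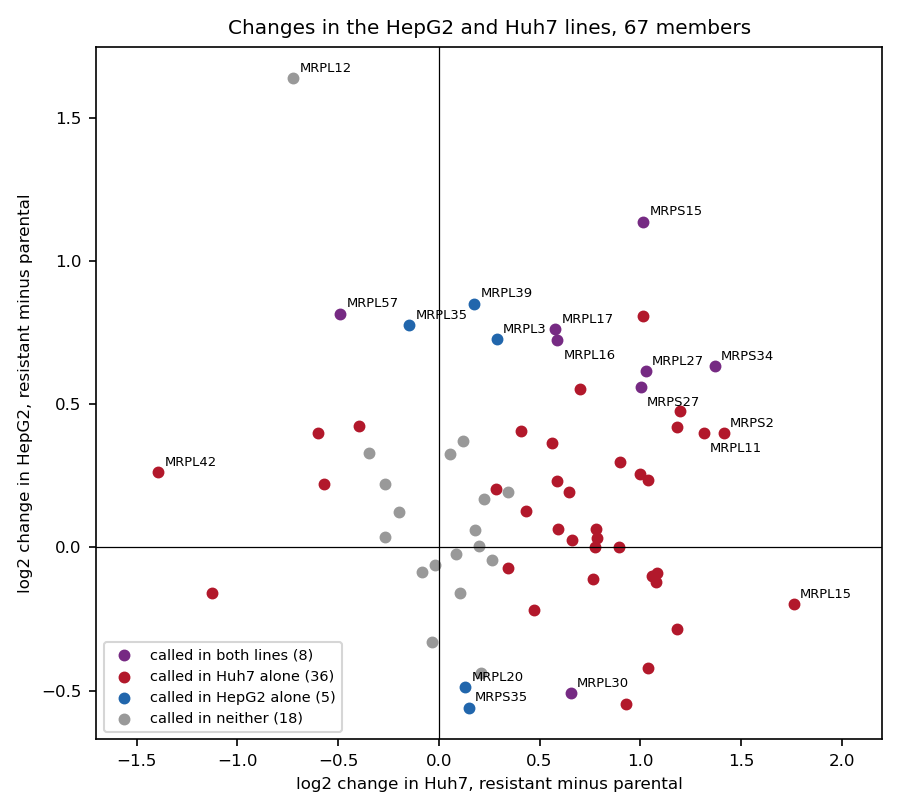
Log2 change of FPKM + 1 in Huh7 (x axis) against that in HepG2 (y axis), resistant minus parental, for the 67 members tested in both lines; colours show in which line the adjusted p was under 0.05. The upper right holds the 6 genes higher in both lines, MRPL57 and MRPL30 lie in opposite quadrants, and most red points spread along the x axis.

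Whether the change differed between the lines was tested as the interaction of line and resistance in all 12 samples. It passed in 37 of 69 members, 12 with a positive difference (HepG2 change minus Huh7 change) and 25 with a negative one, against 33.2% and 23.1% of all 13800 genes tested (56.3% in either direction). The sign does not give the size of a change, as MRPL42 fell in Huh7 and did not pass in HepG2, while MRPS35 fell in HepG2 and did not pass in Huh7. The median difference on the log2 scale was -0.31 over the members and 0.15 over all genes. MRPL15 had a difference of -1.96 (SE 0.23, adjusted p = 5.2e-05), with 31.8, 53.2 and 44.6 FPKM in parental and 36.6, 38.1 and 35.5 FPKM in resistant HepG2 cells, where the groups overlapped. MRPL24 (-1.48) measured 6.44 to 9.86 against 14.4 to 16.8 FPKM in Huh7 and 4.95 to 7.78 against 3.31 to 4.87 FPKM in HepG2. MRPL10 had a difference of -1.47 and MRPS18A of -1.46. On the other side stood MRPL12 (2.36, SE 0.75, adjusted p = 0.0193), which carries the scatter described above, and MRPL42 (1.66, SE 0.26, adjusted p = 0.000315), with 6.95 to 10.6 FPKM in parental and 8.70 to 13.7 FPKM in resistant HepG2 cells. With the GC trend taken off, 4 differences were positive and 38 negative, against 26.4% and 29.3% of all genes. Of the 12 positive differences 3 then remained called, MRPL12, MRPL42 and MRPL57, and 7 kept their sign, while 23 of the 25 negative ones remained called. MRPL42 kept a difference of at least 0.80 in every fit.

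The starting levels of the lines differed as well. Parental HepG2 cells had 20 members higher and 20 lower than parental Huh7 cells, with 29 not past the threshold, against 26.2% and 39% of all 12796 genes tested (65.2% in either direction), and the median log2 difference was -0.02 over the members and -0.19 over all genes. MRPL11 was far lower in parental HepG2, at 20.9, 30.2 and 18.5 FPKM against 106, 104 and 76.1 FPKM (log2 difference -2.01, SE 0.21, adjusted p = 7.16e-05). MRPL47 (-1.45) and MRPL42 (-1.33) were lower too. MRPL15 (1.86), MRPL45 (1.54) and MRPL10 (1.49) were higher in parental HepG2, MRPL45 at 82.95, 95.4 and 81.6 FPKM against 32.3, 28.8 and 26.2 FPKM. All 3 HepG2 samples lay above all 3 Huh7 samples in 21 members (28.4% of all genes) and below them in 23 (41.6%). With the cut at a log2 difference of 1, 6 members were higher and 7 lower (12.5% and 19.4% of all genes). The parental samples are the same as in the comparisons within a line. Group means of MRPL15 were 10.99 FPKM in parental Huh7, 36.7 in resistant HepG2, 39.5 in resistant Huh7 and 43.2 in parental HepG2 cells, and the last 3 overlapped in their samples.

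Promoter sequences from RefSeq (GRCh38.p14, 250 bases before to 50 after a start) matched 68 of the 77 members. Letters bound by 3 factors known to act on nuclear genes for mitochondrial proteins were searched on both strands, the NRF1 palindrome, CCGGAAG for ETS factors such as GABP and AAGATGGC for YY1, with CCAATC as a further motif. No 2 matches of different motifs overlapped in the members. ETS letters stood in 29 of 68 members (42.6%), against 12.2% of all 27305 genes with a promoter and 23.2% of the 8631 of them tested in Huh7. YY1 letters, which contain ATG, stood in 21 members (30.9%), against 3.52% and 6.86%. NRF1 letters stood in 9 (13.2%), against 6.98% and 13.9%, and CCAATC in 13 (19.1%), against 17.9% and 24.0%. Of 36 members with a promoter that were higher in resistant Huh7 cells, 16 held ETS and 11 YY1 letters, of 6 that were lower, 1 held ETS and 4 YY1 letters, and of 21 that were not called, 10 held ETS and 4 YY1 letters. A match is a description of letters, not a site or a cause.

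ETS sites of 30 bases are shown for MRPS34, MRPL27 and MRPL16, which were higher in both lines, for MRPS26, higher in Huh7, and for MRPL47, lower in Huh7. Capitals mark the motif on either strand.
MRPS34, ETS letters, chr16:1773135-1773164, minus strand: tcttccggtgaCTTCCGGccggaccgctga
MRPL27, ETS letters, chr17:50373174-50373203, minus strand: acttttcgagaCCGGAAGtgagtgatcgaa
MRPL16, ETS letters, chr11:59810766-59810795, minus strand: agtgaacacaaCTTCCGGccccactgagcg
MRPS26, ETS letters, chr20:3046004-3046033, plus strand: tccccgcgccgCTTCCGGggcacggtggcg
MRPL47, ETS letters, chr3:179604659-179604688, minus strand: ggcttgagacgCCGGAAGtgacgctatcgt

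YY1 sites are shown for 4 members that were lower in resistant Huh7 cells, MRPL42, MRPL50, MRPL32 and MRPL47, and for 2 that were higher, MRPS27 and MRPL49, with the motif in capitals.
MRPL42, YY1 letters, chr12:93467511-93467540, plus strand: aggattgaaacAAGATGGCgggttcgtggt
MRPL50, YY1 letters, chr9:101398577-101398606, minus strand: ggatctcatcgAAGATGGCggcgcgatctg
MRPL32, YY1 letters, chr7:42932143-42932172, plus strand: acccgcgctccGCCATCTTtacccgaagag
MRPL47, YY1 letters, chr3:179604712-179604741, minus strand: ggcaggatgtgGCCATCTTaagtgagggca
MRPS27, YY1 letters, chr5:72320206-72320235, minus strand: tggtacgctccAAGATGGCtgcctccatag
MRPL49, YY1 letters, chr11:65122333-65122362, plus strand: cgtagcaggtaAAGATGGCagctaccatgt

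NRF1 letters are shown for the genes that changed in opposite directions, MRPL57 and MRPL30, and for MRPL17 in the 189 bases upstream of its first exon, as the only one of the 6 genes higher in both lines that held them.
MRPL57, NRF1 letters, chr13:21176574-21176603, plus strand: cctcggctctGCGCAGGCGCagtcctctct
MRPL30, NRF1 letters, chr2:99181058-99181087, plus strand: tgatacccagGCGCCTGCGCtctctttcta
MRPL17, chr11:6683402-6683590, minus strand: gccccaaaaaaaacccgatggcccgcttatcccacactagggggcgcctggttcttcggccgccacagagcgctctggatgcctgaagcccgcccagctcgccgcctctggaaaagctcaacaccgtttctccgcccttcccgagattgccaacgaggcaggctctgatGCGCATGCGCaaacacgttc

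The ribosomal proteins with symbols of their own were read in the same way. AURKAIP1, a small-subunit protein, was higher in resistant cells of both lines, at 10.0 to 13.2 against 21.7 to 25.2 FPKM in Huh7 (log2 change 0.99, adjusted p = 0.000201) and 9.83 to 12.05 against 19.9 to 22.8 FPKM in HepG2 (0.88, adjusted p = 0.00445). DAP3, a GTP-binding protein of the small subunit, was higher in Huh7 (0.40) and lower in HepG2 (-0.52, adjusted p = 0.0448). CHCHD1 and PTCD3 did not pass in either line, and GADD45GIP1 was too low to test at 0.143 to 0.532 FPKM.

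Of 26 tested factors for assembly of the ribosome and modification of its RNAs, 17 rose and 7 fell with resistance in Huh7, where 32.7% of all genes were called higher and 37.4% lower. C1QBP, a matrix protein that binds RNA, rose from 27.5 to 39.8 FPKM to 88.7 to 98.4 FPKM (log2 change 1.46), and METTL15, a methyltransferase of the small-subunit RNA, fell from 7.23 to 11.98 FPKM to 2.73 to 3.14 FPKM (-1.35). In HepG2, 2 were higher, MRM2 (0.69) and MTG1 (0.66), and 1 was lower, NSUN4 (-0.49), against 11.6% and 8.43% of all genes. Of 14 translation factors, 2 were higher and 7 lower in Huh7, to be read against the 32.7% and 37.4% of all genes, among them the elongation factor TUFM (log2 change 0.94) and the initiation factor MTIF2 (-0.82), and 0 of 14 were called in HepG2. At an unadjusted limma p under 0.05, 2 of these were higher in HepG2 and 0 lower. Genes for replication and transcription of mitochondrial DNA had 1 of 10 higher in Huh7, the helicase TWNK (1.05), and 6 lower, with MTERF2 (-1.15) among them, against that same background. In HepG2 the polymerase POLG was the 1 called (0.47).

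The mitochondrial RNAs themselves were poorly covered. MT-RNR2, the large ribosomal RNA, measured 55.1 to 87.5 FPKM in parental Huh7 cells and 92.8, 59.9 and 2844 FPKM in resistant ones, so that replicate 3 stood apart by more than an order of magnitude (adjusted p = 0.211). In HepG2 it was 102 to 138 FPKM in parental and 123 to 152 FPKM in resistant cells. MT-RNR1, the small ribosomal RNA, was listed at 0 to 0.305 FPKM in every sample. Of the messenger RNAs, MT-CO1 was higher in resistant Huh7 cells (log2 change 0.49, adjusted p = 0.00892), at 1.61 to 2.43 against 1.00 to 1.24 FPKM, and MT-ND3 did not pass.

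Some regulators of nuclear genes for mitochondrial proteins differed in their change between the lines. MYC went from 29.8 to 37.2 FPKM in parental to 53.5 to 72.6 FPKM in resistant Huh7 cells (log2 change 0.88) and from 262 to 305 FPKM to 79.5 to 96.3 FPKM in HepG2 (-1.66), a difference between the lines of -2.54 (SE 0.19, adjusted p = 2.81e-06). The coactivators PPRC1 (1.01) and PPARGC1B (0.98) and the nuclear receptor ESRRA (0.78) were higher in resistant Huh7 cells. GABPA (-1.13), YY1 (-0.70) and GABPB1 (-0.39) were lower there. In HepG2, GABPB1 (-0.72) and PPARGC1A (-1.08) were lower, the latter at 9.45 to 15.3 FPKM in parental and 4.04 to 6.29 FPKM in resistant cells. PPARGC1A was too low to test in Huh7, at 0.723 to 0.923 FPKM in parental and 0.0774 to 0.116 FPKM in resistant cells. Its limma interaction of line and resistance did not pass (adjusted p = 0.257). NRF1 did not pass in either line (log2 change 0.08 and 0.20).

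Genes of related complexes gave a frame for these counts. Of all genes tested, 32.7% were called higher and 37.4% lower in Huh7, and 11.6% higher and 8.43% lower in HepG2. Cytosolic ribosomal proteins rose in 75 of 85 and fell in 3 with resistance in Huh7 (median log2 change 0.86), and were higher in 2 of 82 and lower in 6 in HepG2 (median -0.14). Nuclear genes for subunits of oxidative phosphorylation were higher in 39 of 67 and lower in 6 in Huh7 (median 0.49), and higher in 6 of 63 and lower in 0 in HepG2 (median 0.22). The difference between these groups of genes was not tested.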

How the data were processed

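RNA was sequenced from 12 samples, 3 in each of 4 groups taken from the labels. The authors deposited 1 table per sample with normalised values, read here as FPKM, a unit that the sources used here do not name and that could be RPKM. The submitters' processing notes name bcl2fastq and GRCh38, and the aligner and counter are not given in the sources used here. The depth of a sample was not given and was fitted. It is the number that brought values times exon length (GENCODE 29) of single-exon genes closest to whole reads. With this depth, 97.5% of the members' values up to 2000 reads were whole reads, within 0.05. Whole reads were thus sought by the fit, and they cannot tell FPKM from RPKM. Genes with at least 1 FPKM in 3 samples of a comparison were tested on log2(FPKM + 1), a scale that understates the change of low genes, with limma 3.58.1 (trend, two-sided) in R 4.3.3 and Benjamini-Hochberg adjustment over all Ensembl genes tested. A call needs an adjusted p under 0.05, and a DEG also a log2 change beyond 1. The fits were tested on simulated data with known changes and the same dispersion for all genes, which the real data need not have. A log2 change of 1 was recovered in 87% of 100 genes in each comparison of 2 groups and in 60% in the interaction. For a log2 change of 2 these shares were 98% to 99% and 91%. The median estimate of a change of 1 was 0.83 to 0.90.

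Genes were named by a rule: the 5 largest changes in each direction and line among called members without overlap, all DEGs, up to 5 called alike in both lines, the 5 largest interactions, the 3 highest and 3 lowest levels, the S18 family, and 3 in each direction between the parental lines. From related lists, the 2 largest called changes per line and all expressed genes of the short lists were taken. Other members described, such as MRPL3, MRPL19, MRPL58 and MRPS36, were chosen after their values were seen. The members and lists were chosen with earlier results of these data known. Alternatives were another pseudocount, no filter, 2 scalings, limma-voom, no trend, all samples in one fit, a replicate block, GC or length trends taken off, and leaving out each sample.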

Additional observations from a re-analysis of the deposited data

Results flagged for a closer look

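The change upon resistance differed between the lines in 26 of the members named by the rule, 9 with a positive and 17 with a negative difference. The test was the interaction of line and resistance at a limma adjusted p under 0.05. Values are the HepG2 change minus the Huh7 change in log2(FPKM + 1), so that the sign does not say in which line a gene changed more. The difference was positive for MRPL12 (2.36), MRPL42 (1.66), MRPL57 (1.31), MRPL13 (1.02), MRPL47 (1.00), MRPL32 (0.97), MRPL35 (0.92), MRPL50 (0.79) and MRPL39 (0.68). With the GC trend taken off, MRPL12, MRPL42 and MRPL57 were the 3 that remained called of all 12 positive differences, and 23 of 25 negative ones did. Among proteins of the large subunit it was negative for MRPL15 (-1.96), MRPL24 (-1.48), MRPL10 (-1.47), MRPS18A (-1.46), MRPL28 (-1.20), MRPL37 (-1.17), MRPL30 (-1.16), MRPL11 (-0.92), MRPL45 (-0.89), MRPL49 (-0.80), MRPL43 (-0.74) and MRPL20 (-0.62). In the small subunit these were MRPS17 (-1.16), MRPS2 (-1.01), MRPS34 (-0.74), MRPS26 (-0.72) and MRPS35 (-0.71). Of the members described outside the rule, MRPL19 (0.82) and MRPL58 (-0.77) passed as well. Groups of 3 samples are too small for a test of single deviating samples.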

How the results depend on the processing

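Of 804 values of members named by the rule under the alternatives, 757 kept direction and side of the threshold, 41 lost the call and 6 reversed. The cause was not tested. Fits in which a member was no longer tested are not among these values. MRPL13 in Huh7 was tested in 3 of the 6 fits without 1 sample. The reversed ones were MRPL13 (0.35), MRPL47 (0.19) and MRPL50 (0.38) in Huh7 with the GC trend taken off, with or without the replicate block. In Huh7, the members' median was 0.35 with no filter and 0.33 with the length trend taken off, 11 were lower by limma-voom, and 4 with the GC trend taken off and the block. Of all genes, 40% were lower by limma-voom and 29.7% with the GC trend taken off and the block. In HepG2, 6 were higher with no filter, 17 higher and 5 lower with all 12 samples in one fit, and 8 lower with the GC trend taken off (7 with the block) and 6 with the length trend taken off. Of all genes, 3.45% were higher with no filter, and 20.2% higher and 12.8% lower with all 12 samples in one fit. The shares lower were 17.6% with the GC trend taken off (17.9% with the block) and 11.3% with the length trend taken off. The HepG2 median was 0.087 with median-ratio scaling, 0.058 with the GC trend taken off (also with the block) and 0.074 with the length trend taken off. The median parental difference reversed to 0.061 with upper-quartile scaling, 0.13 with median-ratio scaling, 0.22 with the GC trend taken off (also with the block) and 0.072 with the length trend taken off. Median-ratio scaling moved the median of all genes from -0.19 to -0.046 there, and from 0.12 to 0.028 in HepG2. The median interaction was -0.21 with no filter, -0.47 with median-ratio scaling and -0.51 with the GC trend taken off, where 4 were positive and 38 negative (4 positive and -0.51 with the block). Of all genes, 26.4% were positive and 29.3% negative with the GC trend taken off.

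Whether replicate numbers pair samples was not tested. In Huh7, correlations of deviations were -0.198 to 0.073 for the same number and -0.295 to 0.249 for unlike numbers. In HepG2 they were -0.011 to 0.39 and -0.386 to 0.193. With the replicate block 5 members were lower in HepG2. Of all genes there, 17.9% were then higher and 11.1% lower, against 11.6% and 8.43% without the block. Without 1 sample, 37 to 39 members were higher and 6 to 8 lower in Huh7. Of all genes there, 26.6% to 36.9% were higher and 30.2% to 39.1% lower. In HepG2, 2 to 14 members were higher and 0 to 2 lower, against 3.34% to 11.7% and 4.03% to 7.81% of all genes. The parental median was -0.043 to 0.015 without 1 sample. In HepG2, MRPL20 lost its call in every such fit, and MRPS34 and MRPL30 in 5 of 6, while MRPS15 and MRPL39 kept theirs. Depth limits low members, with a minimum of 17 reads for MRPL54 and 20 for MRPL12 among those tested.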
